A study of Homo sapiens with 25 samples.

Results

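Ribosome biogenesis factors are the proteins that build ribosomes without staying in them. The set described here is a list of 60 such genes, chosen by name and function with earlier results of these data known. Counts of members beside shares of all genes are therefore a description and not a test. Each gene was represented by 1 probe set, the brightest of those that name no second gene, judged by its mean on the 25 arrays. This gave values for 53 of the 60 members, out of 19775 genes so represented. All 53 were among the 12643 genes tested, for which 3 or more arrays read over 4 on the log2 scale, and no member had a group mean under 5.22. The other 7 listed genes, NOP56, DKC1, BOP1, DDX18, GNL3, PPAN and EBNA1BP2, had no probe set with a single symbol in the annotation used here and were not analysed.

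Ribosome production starts in the nucleolus, where RNA polymerase I transcribes a long precursor of the ribosomal RNAs. Small nucleolar ribonucleoproteins modify this precursor, the small subunit processome folds and cuts the part that enters the small subunit, and separate sets of factors assemble and export the 40S and 60S subunits. Growth factor signalling through the EGFR, ERK and PI3K pathways is known to promote this programme, in part through MYC, a transcription factor that binds the promoters of many of its genes.

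The samples were breast cancer cells treated with erlotinib, an inhibitor of the EGFR kinase, and RNA was measured on Affymetrix arrays. From the line BT20 there were 4 groups, at 0 min (4 arrays), 30 min (3 arrays), 6 h (3 arrays) and 24 h (3 arrays) after addition of 10 µM erlotinib. The lines MDA-MB-453 and MCF each had 3 arrays at 0 min and 3 arrays at 24 h of the same dose. Each 0 min group is the starting point of its own line, all cells grew in medium with serum, and the labels list no group given the solvent alone, so time in culture and erlotinib cannot be told apart. The name MCF is given as the labels give it, and the labels do not say which MCF line it is. They do not say whether replicates were separate cultures, so each p measures the spread between these arrays, which may be technical. Each line is 1 cell population, and nothing here extends to other cells of its kind.

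The EGFR mean was 12.18 in BT20, 3.55 in MDA-MB-453 and 3.03 in MCF, on the log2 scale of the deposited values. EPCAM, CDH1, KRT8, KRT18 and KRT19, markers of epithelial cells, had means from 10.4 to 13.5 in the 3 lines. ERBB2 was highest in MDA-MB-453 (11.07) and ESR1 in MCF (12.57), with ESR1 at 8.83 in BT20. Of the keratins of basal cells, KRT5 had a mean of 12.18 in BT20 but KRT14 one of 3.78. PIP was high in MDA-MB-453 alone (11.23), while AGR2 was 13.2 in both MDA-MB-453 and MCF. GREB1 was high in MCF alone (11.9), while TFF1 was 13.44 in MCF and 8.59 in MDA-MB-453. Of 12 measured markers of blood, fibroblast and endothelial cells, 4 passed the filter. Of the blood markers, PTPRC and CD3E were at or under 2.51 on every array, CD14 reached 3.96 and LYZ 4.54. The fibroblast marker COL1A1 had means of 8.41 to 11.15 and COL3A1 a mean of 5.22 in MCF, while COL1A2, PDGFRB and DCN stayed under 4 on every array. The endothelial marker CDH5 had a mean of 11.0 in BT20, with PECAM1 at most 4.90 and VWF at most 3.56. The part of other cell types in the results was not tested. The 75th percentile of all values was 7.65 to 7.81 on the 19 arrays of BT20 and MDA-MB-453, labelled Part 1, and 7.27 to 7.32 on the 6 MCF arrays, labelled Part 2. Levels were therefore tested within a part only, and line and part cannot be told apart for MCF. In such bulk samples, fewer cells of a kind and less RNA per cell cannot be told apart.

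One array stood apart from its label. Replicate 4 of BT20 at 0 min correlated across the 12643 genes at 0.990 to 0.992 with the 6 h arrays and at 0.971 to 0.975 with the other 0 min arrays, which correlated with each other at 0.995 or more. It also held the lowest value of the 4 for many members. The 6 h results are therefore given against all 4 arrays and against replicate 4 alone, and the 24 h results against all 4 arrays and against replicates 1 to 3, both from a fit with a term shared by replicate 4 and the 6 h arrays.

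The mean of the 53 members on each array shows the course in outline. In BT20 at 0 min it was 10.81, 10.79, 10.75 and, on replicate 4, 10.44 (mean 10.69 ± 0.17, SD, n = 4). At 30 min it was 10.71, 10.80 and 10.82, at 6 h 10.06, 10.04 and 10.03, and at 24 h 9.85, 9.86 and 9.91. The 6 h and 24 h arrays of BT20 all lay below every 0 min and 30 min array, with replicate 4 nearest to them. In MDA-MB-453 the mean went from 10.18, 10.19 and 10.24 at 0 min to 9.63, 9.65 and 9.67 at 24 h, without overlap. In MCF it went from 10.04, 9.88 and 10.01 to 9.75, 9.57 and 9.90, and here the groups overlapped, because replicate 3 at 24 h lay above replicate 2 at 0 min.

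**Figure D1:**
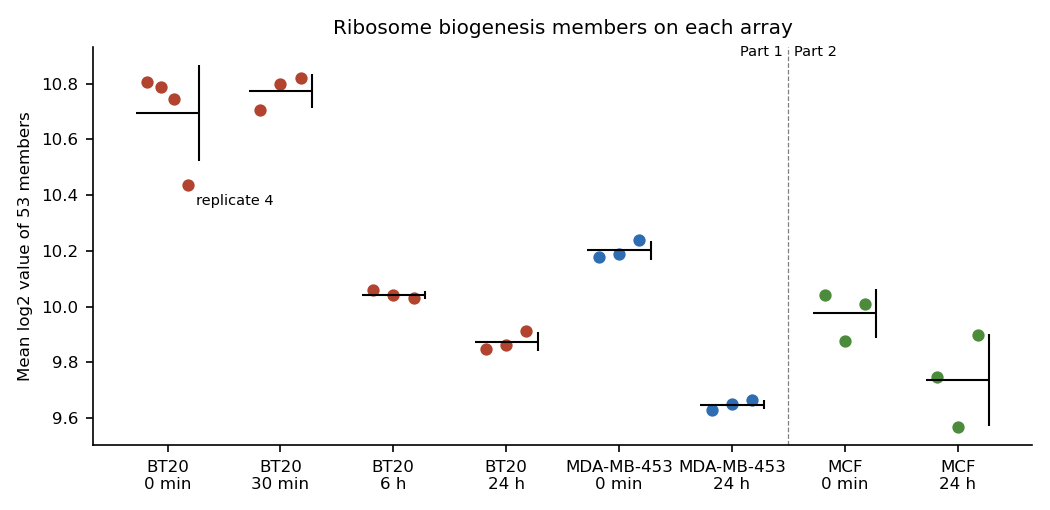
Mean log2 value of the 53 members on each array (points), with the mean of each group (line) and its SD (bar). BT20 falls from 10.69 at 0 min to 10.04 at 6 h and 9.87 at 24 h, MDA-MB-453 from 10.20 to 9.65, and the MCF groups overlap.

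In BT20 cells treated for 24 h, 46 of the 53 members fell and none rose (limma fit to the 13 BT20 arrays, p adjusted over all 12643 genes, called under 0.05). Of all genes tested, 18.3% were called lower and 24.1% higher in this comparison. The median change of the members was -0.77 log2 units, which puts the median member at 58.6% of its 0 min level, while the median over all genes was 0.03. At least 2-fold falls were seen in 17 members, against 5.73% of all genes. Against replicates 1 to 3 alone, 51 members fell, the median was -0.85 and 24.9% of all genes were called lower. For 43 members every 24 h array lay below every 0 min array, which held for 19.6% of all genes. Standard errors of the fit, given after ± from here on, ran from 0.07 for NPM1 to 0.33 for PWP2.

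All 7 measured factors of the nucleolar scaffold and of ribosomal RNA transcription fell in BT20 at 24 h, with a median change of -0.44 log2 units. NCL, or nucleolin, is an abundant RNA-binding protein of the nucleolus. Its values were 12.59, 12.58, 12.85 and 12.54 at 0 min and 12.22, 12.20 and 12.28 at 24 h, and it fell by 0.41 ± 0.10 (adjusted p = 0.00475). The groups did not overlap, and replicate 3 at 0 min was the highest. NPM1, or nucleophosmin, which forms the outer layer of the nucleolus, went from 13.44, 13.43, 13.54 and 13.41 to 13.28, 13.24 and 13.20, again without overlap. It fell by 0.21 ± 0.07 (adjusted p = 0.0372), one of the smallest changes in the set on the probe sets used. The other probe sets of NPM1 read -0.23 and -0.44. NOLC1, a chaperone of small nucleolar ribonucleoproteins, fell by 0.44 ± 0.08 and the helicase DDX21 by 0.36 ± 0.09.

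The other 3 members of this class fell by more than 1 log2 unit. TCOF1, or treacle, is needed for transcription of the ribosomal RNA genes. It read 7.88, 8.23, 7.91 and 8.58 at 0 min, 8.13, 8.10 and 7.94 at 6 h, and 6.72, 6.82 and 6.86 at 24 h. The 0 min and 6 h arrays overlapped and all 24 h arrays lay below both, a fall of 1.35 ± 0.15 (2.55-fold, adjusted p = 1.41e-05). This course holds for the chosen probe set alone, as the other 2 probe sets of TCOF1 read -2.30 and -0.91 at 6 h and -1.41 and -1.20 at 24 h. LYAR, a nucleolar zinc finger protein, went from 10.34, 10.45, 10.36 and 9.98 to 8.82, 8.93 and 8.97, a fall of 1.38 ± 0.13. PPRC1, a transcriptional coactivator known for control of mitochondrial genes and the member least tied to ribosome assembly, fell by 1.57 ± 0.18 (2.96-fold, adjusted p = 1.98e-05).

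Of the 7 measured small nucleolar ribonucleoprotein and RNA modification factors, 6 fell, with a median change of -0.68. FBL, or fibrillarin, is the methyltransferase of the box C/D particles. Its values were 12.27, 12.28, 12.22 and 12.28 at 0 min and 11.45, 11.53 and 11.60 at 24 h, a fall of 0.74 ± 0.08 (adjusted p = 1.41e-05). NOP58, a core protein of the same particles, fell from 12.37, 12.22, 12.33 and 11.80 to 11.27, 11.38 and 11.41, by 0.82 ± 0.14 (adjusted p = 0.00035). In both genes the groups were apart, and replicate 4 was the lowest 0 min array for NOP58 but not for FBL. NOP2, which methylates a cytosine of the large ribosomal RNA, had the largest fall of the class (1.32 ± 0.19, 2.49-fold). The acetyltransferase NAT10 fell by 0.68 ± 0.15, FTSJ3 by 0.65 ± 0.20 and the pseudouridine synthase PUS7 by 0.36 ± 0.08. GAR1, a protein of the box H/ACA particles, was -0.22 ± 0.09 and did not pass (adjusted p = 0.0822), but fell by 0.28 ± 0.08 against replicates 1 to 3 (adjusted p = 0.0102).

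Of the 18 small subunit processome members, 14 fell, with a median change of -0.71. RRP9 is a protein specific to the U3 particle, which guides the first cuts of the precursor. It read 7.98, 7.79, 7.84 and 7.17 at 0 min and 6.25, 6.42 and 6.17 at 24 h. All 24 h arrays were below replicate 4, itself well below the other 0 min arrays, and RRP9 fell by 1.41 ± 0.16 (2.66-fold, adjusted p = 2.1e-05). The helicase DDX10 fell from 10.50, 10.42, 10.46 and 10.27 to 8.92, 8.99 and 9.18, by 1.38 ± 0.10 (adjusted p = 4.15e-07). UTP20 and PWP2, scaffold proteins of the processome, fell by 1.25 ± 0.20 and 1.20 ± 0.33. The 0 min values of PWP2 were widely spread (9.28, 9.20, 8.52 and 7.63), and its 24 h values were 7.40, 7.56 and 7.40, all below them.

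The remaining falls in this class ranged from 0.96 ± 0.14 for NOP14 to 0.26 ± 0.08 for MPHOSPH10, a U3-associated protein. Between them lay IMP4 (-0.92), UTP15 (-0.82), WDR3 (-0.77), WDR43 (-0.73), UTP14A (-0.70), NOC4L (-0.69), WDR75 (-0.60) and UTP4 (-0.39). The proteins UTP4, UTP15, WDR43, WDR75 and HEATR1 are parts of one early-binding subcomplex, and 4 of these 5 fell. HEATR1 was the exception on the probe set used, with 12.37, 12.33, 12.50 and 12.13 at 0 min and 12.24, 12.22 and 12.26 at 24 h. Its other probe sets above the filter changed by -0.92, -0.16 and -0.13. On the probe set used the groups overlapped, with a change of -0.09 ± 0.09 (adjusted p = 0.458). The GTPase BMS1 (-0.40 ± 0.23), NOP9 (-0.37 ± 0.24) and UTP18 (-0.39 ± 0.19) did not pass either. Each of these 3 had replicate 4 as its lowest 0 min array, and against replicates 1 to 3 they fell by 0.68 ± 0.11, 0.65 ± 0.12 and 0.60 ± 0.11.

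All 6 members that mature and export the 40S subunit fell, with the largest median of the 5 classes, -1.02. RRP12, an export factor, had the largest fall of the whole set. It read 7.13, 7.29, 6.92 and 6.62 at 0 min and 4.92, 5.53 and 5.20 at 24 h, a fall of 1.77 ± 0.20 (3.42-fold, adjusted p = 1.61e-05), with the groups more than 1 log2 unit apart. BYSL, or bystin, went from 10.52, 10.59, 10.51 and 9.29 to 8.68, 8.83 and 8.91, and only replicate 4 came near the 24 h arrays. Its fall was 1.42 ± 0.30 against all 4 arrays and 1.74 ± 0.19 against replicates 1 to 3. TSR1, a GTPase-like factor, fell by 1.20 ± 0.12, LTV1 by 0.83 ± 0.11 and PNO1 by 0.40 ± 0.13. NOB1, the nuclease that makes the final cut of the small subunit RNA, fell by 0.81 ± 0.25, and its 24 h values of 9.96, 10.09 and 10.20 overlapped the 0 min group through replicate 4 (10.08).

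Of the 15 measured 60S assembly factors 13 fell, with a median of -0.85. MRTO4, which holds the place of the ribosomal stalk during assembly, read 10.76, 10.91, 10.27 and 10.26 at 0 min and 8.85, 8.80 and 8.77 at 24 h. The groups were far apart, a fall of 1.75 ± 0.17 (3.35-fold, adjusted p = 6.28e-06). NOC3L, a factor of early large subunit particles, went from 10.19, 10.01, 10.10 and 10.45 to 8.54, 8.36 and 8.89, a fall of 1.59 ± 0.14 (3.01-fold, adjusted p = 2.4e-06). Replicate 4 was here the highest 0 min array. WDR74 (-1.29), RRP15 (-1.09), URB2 (-1.07) and RRS1, which brings in the 5S RNA particle (-1.05), also fell at least 2-fold. WDR12 (-0.89), NOC2L (-0.85), the GTPases GTPBP4 (-0.84) and GNL2 (-0.64), NIP7 (-0.58), the helicase DDX56 (-0.53) and RRP1B (-0.47) fell by less. PES1, a partner of WDR12, missed the threshold against all 4 arrays (-0.62 ± 0.24, adjusted p = 0.0515) and passed against replicates 1 to 3 (-0.89 ± 0.13).

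NOP16 was the 1 member with a higher mean at 24 h. Its values were 10.83, 10.79, 11.04 and 11.16 at 0 min and 11.09, 11.07 and 11.07 at 24 h, and the change of 0.12 ± 0.10 did not pass (adjusted p = 0.361). This sign depended on the probe set. The chosen probe set and 1 other read 0.12 and 0.20, while the remaining 2 probe sets of NOP16 read -1.06 and -1.41 in the same comparison. Over the set, 22 members had more than 1 probe set above the filter, and 33 of their 34 other probe sets were lower at 24 h, with a median change of -0.94. In 21 of these 22 members every probe set was lower, so that NOP16 was the only one with both signs. The size differed more: NOLC1 read -0.44 on the chosen probe set and -1.91 and -1.45 on the others, and PNO1 read -0.40 against -1.07 and -1.01. By the rule, the chosen probe set is the brightest of each gene.

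**Figure D2:**
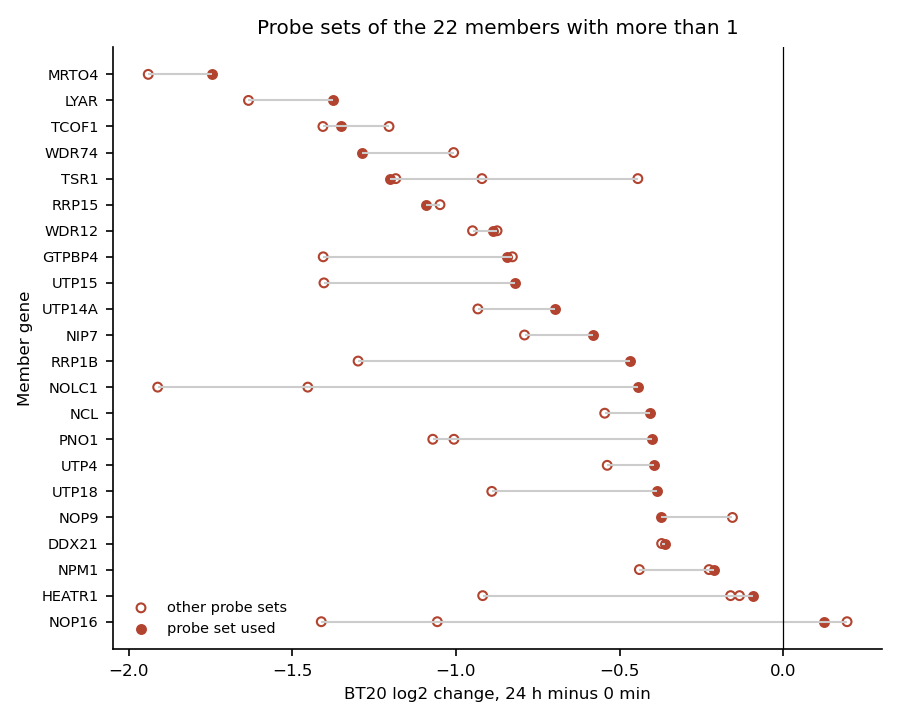
Change in BT20 at 24 h for every probe set of the 22 members with more than 1 above the filter. Filled points are the probe sets used and open points the others; they share a sign in 21 members, and NOP16 spans from -1.41 to 0.20.

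Promoters of the set were compared because the members moved together. The RefSeq table for GRCh38.p14 gave windows of 250 bases before to 50 bases after the start for 50 of the 60 members. The E-box CACGTG, a palindrome that MYC and related factors are known to bind, was searched on both strands, which for a palindrome is the same search. It was present in 25 of the 50 member genes (50%) and in 8.78% of the 27305 genes with a window in the table. In 21 members it lay between 20 bases before and 40 bases after the start, against 1.92% of all genes, a range chosen after the positions were seen. Among other assembly factors not in the set 18 of 57 had the motif (31.6%), and among ribosomal protein genes 4 of 63 (6.35%). Stretches of 90 bases before to 30 bases after the start follow, in the direction of transcription with the E-box in capitals, for 6 members that hold it near the start and 4 that do not. They were chosen to show members with a large, a middle and a small change.
MRTO4, chr1:19251715-19251834, plus strand: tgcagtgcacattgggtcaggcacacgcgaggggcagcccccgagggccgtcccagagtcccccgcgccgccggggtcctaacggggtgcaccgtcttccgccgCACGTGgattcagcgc
NOC3L, chr10:94362910-94363029, minus strand: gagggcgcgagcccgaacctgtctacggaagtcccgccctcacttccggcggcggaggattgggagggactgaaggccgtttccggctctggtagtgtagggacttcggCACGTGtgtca
RRP9, chr3:51941875-51941994, minus strand: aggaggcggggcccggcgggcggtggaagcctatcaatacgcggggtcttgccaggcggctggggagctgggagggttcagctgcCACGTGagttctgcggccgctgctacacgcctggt
UTP20, chr12:101280015-101280134, plus strand: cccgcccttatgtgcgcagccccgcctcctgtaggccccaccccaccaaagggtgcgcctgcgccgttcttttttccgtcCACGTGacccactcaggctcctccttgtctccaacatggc
FBL, chr19:39846350-39846469, minus strand: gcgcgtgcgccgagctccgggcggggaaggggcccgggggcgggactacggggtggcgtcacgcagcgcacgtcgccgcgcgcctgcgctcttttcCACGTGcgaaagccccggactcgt
PNO1, chr2:68157798-68157917, plus strand: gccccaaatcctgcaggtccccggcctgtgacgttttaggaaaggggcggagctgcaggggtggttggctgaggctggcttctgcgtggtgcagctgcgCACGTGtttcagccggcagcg
PPRC1, chr10:102132950-102133069, plus strand: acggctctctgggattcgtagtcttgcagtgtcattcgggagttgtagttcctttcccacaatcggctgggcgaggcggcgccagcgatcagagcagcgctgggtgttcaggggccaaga
DDX10, chr11:108664979-108665098, plus strand: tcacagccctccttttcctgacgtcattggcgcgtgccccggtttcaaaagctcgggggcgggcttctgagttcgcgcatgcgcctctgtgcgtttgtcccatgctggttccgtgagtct
HEATR1, chr1:236604487-236604606, minus strand: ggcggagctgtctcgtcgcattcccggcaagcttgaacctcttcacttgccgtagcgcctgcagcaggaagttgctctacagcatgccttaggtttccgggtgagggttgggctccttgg
NOP16, chr5:176388569-176388688, minus strand: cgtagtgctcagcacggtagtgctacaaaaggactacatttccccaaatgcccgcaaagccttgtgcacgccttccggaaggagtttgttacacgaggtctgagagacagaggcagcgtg

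Members with and without the E-box were then compared by their median change, with no test. The median change in BT20 at 24 h was -0.74 in the 23 tested members with the motif and -0.73 in the 22 without it, and in MDA-MB-453 the medians were -0.57 and -0.45. MRTO4 and PNO1 both hold it within 20 bases of the start and changed by -1.75 and -0.40 on the probe sets used. The other probe sets of PNO1 read -1.07 and -1.01. PPRC1 and DDX10 fell by 1.57 and 1.38 with none in the window. HEATR1 and NOP16, with the smallest differences on the probe sets used, had none either. A match describes these letters only and no binding was measured.

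At 6 h in BT20, 37 members fell and 1 rose against the 4 arrays at 0 min, where 25.9% of all genes were called lower and 26.1% higher. The median change was -0.58, and over all genes it was -0.01. Against replicate 4 alone the count was 13, with 3.61% of all genes called lower, and the median was -0.33. The members that fell in that comparison were BYSL, DDX10, DDX56, FBL, LYAR, NOC3L, PPRC1, RRP9, RRS1, TCOF1, URB2, UTP20 and WDR74. The first count compares the 6 h arrays mainly with 0 min arrays that stood apart from replicate 4 too. What sets replicate 4 and the 6 h arrays apart from the other 0 min arrays was not tested. In the first count it cannot be told apart from the 6 h change. The second count has replicate 4 as its only control array. Both counts hold for the probe sets used. Against the 4 arrays most other probe sets of members above the filter were lower at 6 h. However, 1 of MRTO4 read 3.04 and 1 of TSR1 0.58, and both genes are among the 37. Others that were higher belonged to UTP15 (0.73), WDR12 (0.38), RRP15 (0.23), NOP16 (0.22), PNO1 (0.11) and NIP7 (0.06).

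PPRC1 had the smallest p of the set at 6 h. It read 9.06, 8.90, 8.62 and 8.19 at 0 min, and 6.77, 6.62 and 6.77 at 6 h, and fell by 1.97 ± 0.18 against all 4 arrays (adjusted p = 2.08e-05) and by 1.47 ± 0.18 against replicate 4 (adjusted p = 0.000347). Every 6 h array was more than 1 log2 unit below the lowest control. RRS1 followed, with 11.44, 11.46, 11.33 and 10.85 at 0 min and 10.05, 9.93 and 9.69 at 6 h, a fall of 1.38 ± 0.14, or 0.96 ± 0.14 against replicate 4. LYAR fell by 1.10 ± 0.13 and 0.80 ± 0.15 in the same order, and DDX10 by 0.87 ± 0.10 and 0.73 ± 0.14.

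At 6 h against the 4 arrays, 16 of 18 processome members, 6 of 7 modification factors and 9 of 15 60S factors fell. So did 4 of 6 40S factors and 2 of 7 nucleolar scaffold factors. The last is close to the 25.9% of all genes called lower. Against replicate 4 the counts were 3, 1, 5, 1 and 3. The scaffold count against the 4 arrays depended on the probe set. Other probe sets read -0.84 and -0.88 for NOLC1, -2.30 and -0.91 for TCOF1, -0.51 for DDX21 and -0.46 for NCL. Those of NPM1 read -0.11 and -0.05. With the mean of probe sets 5 of the 7 fell, and the share of all genes was not computed for that setting. On the probe sets used, NCL (-0.10 ± 0.10) and NPM1 (0.00 ± 0.07) did not pass at 6 h. The single rise was PUS7, from 11.42, 11.42, 11.48 and 11.63 to 11.68, 11.71 and 11.72. This change of 0.21 ± 0.08 was at the threshold (adjusted p = 0.0497) and was 0.07 ± 0.11 against replicate 4, which did not pass.

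**Figure D3:**
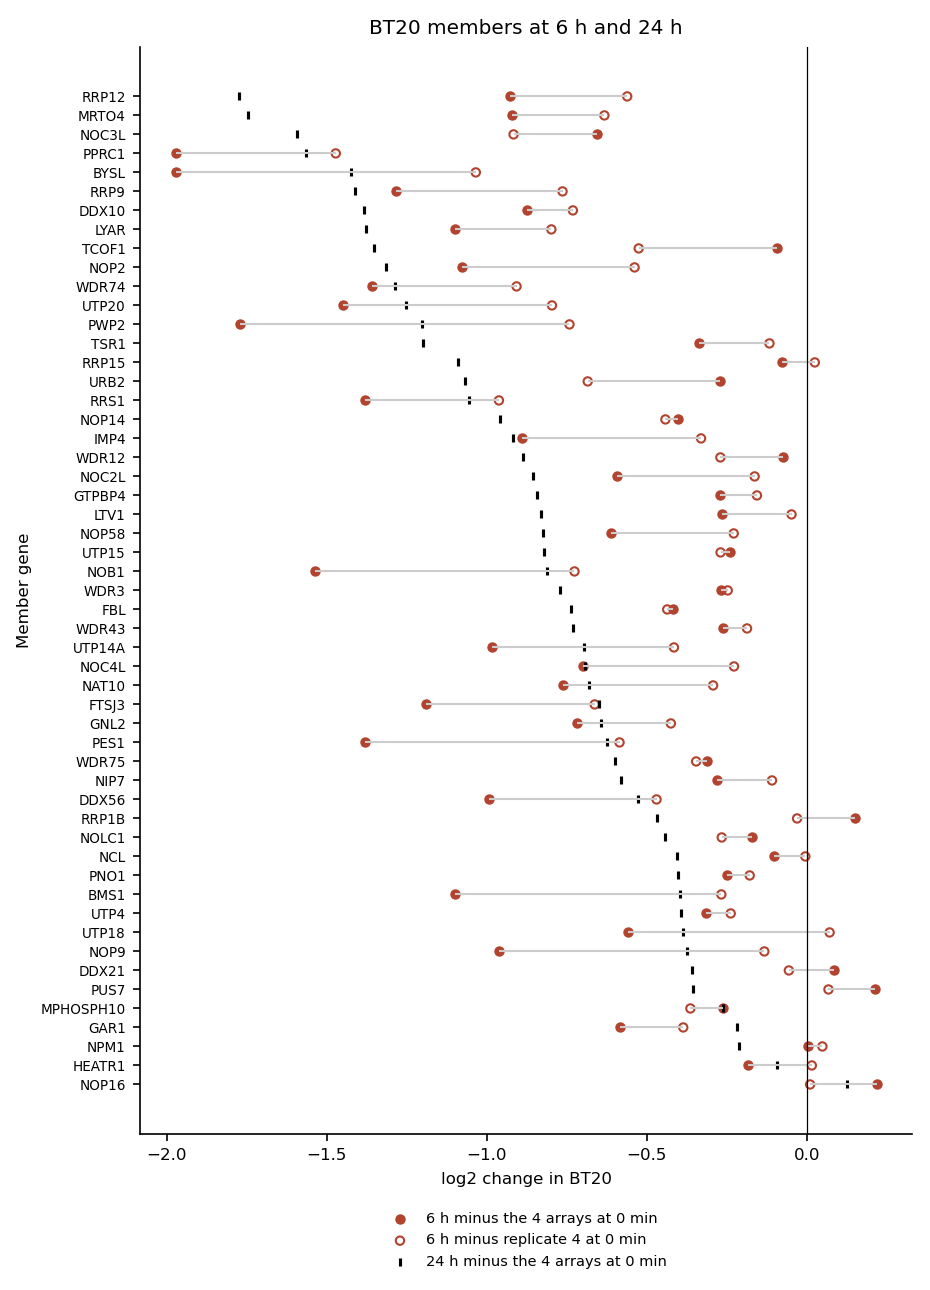
Log2 change of each member in BT20 at 6 h against the 4 arrays at 0 min (filled) and against replicate 4 alone (open), with the 24 h change against the 4 arrays (black tick), ordered by the 24 h change. The median is -0.58 for the filled points and -0.33 for the open ones, and the 6 h and 24 h changes share their control arrays.

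Between 6 h and 24 h members differed in both directions. Without the shared term, these differences may also hold what sets replicate 4 and the 6 h arrays apart from the other 0 min arrays. Of the 53, 23 were lower at 24 h than at 6 h and 6 were higher, with 24% and 29.6% of all genes called lower and higher. RRP15, a 60S factor, read 11.22, 11.23 and 11.40 at 6 h, close to its 0 min arrays (11.38, 11.35, 11.45 and 11.26), and 10.46, 10.15 and 10.20 at 24 h, where all 3 arrays were lower. Its difference of -1.01 ± 0.11 had the smallest p of the set (adjusted p = 2.22e-05). TCOF1 (-1.26 ± 0.16), WDR12 (-0.81 ± 0.12) and TSR1 (-0.86 ± 0.13) came next by p. Their 6 h changes from the 4 arrays at 0 min were -0.09, -0.07 and -0.34, of which the last passed. With the shared term the 24 h minus 6 h difference of TCOF1 was -0.68 ± 0.18, and on its probe set that read -2.30 at 6 h and -1.41 at 24 h the later value was the higher. The 23 also held NCL, NPM1, NOLC1 and DDX21, but none of these 4 passed with the shared term.

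The 6 that were higher at 24 h than at 6 h were BMS1, DDX56, FTSJ3, GAR1, NOB1 and PES1. PES1 read 7.13, 7.09 and 7.29 at 6 h and 7.99, 7.79 and 8.0 at 24 h, all 6 h arrays below all 24 h arrays, a difference of 0.76 ± 0.25 (adjusted p = 0.0249). Its 0 min values of 8.86, 9.02, 8.56 and 7.75 were above these except on replicate 4. These 6 calls depended on replicate 4 and on single arrays. With the shared term no member passed as higher, and the difference changed sign for 5 of the 6, to -0.30 ± 0.22 for PES1, -0.41 for BMS1, -0.35 for NOB1, -0.23 for DDX56 and -0.16 for FTSJ3. That fit called 21 members lower, of which 11 were among the 23 and 10 were not, and the median difference went from -0.22 to -0.53. It called 10.7% of all genes lower and 15.5% higher. Leaving out any 1 of the 6 arrays at 6 h and 24 h gave 1 to 3 calls, with 1 without 24 h replicate 1 or 3 or without 6 h replicate 1.

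At 30 min no member was called in the limma fit, and none had an unadjusted p under 0.05. The same fit called 0.00791% of all genes lower, a single gene. The median change of the members was 0.04, from -0.14 to 0.49, and -0.02 against replicates 1 to 3. The smallest p belonged to UTP20, which read 8.43, 8.47 and 8.57 at 30 min against 8.21, 8.30, 8.38 and 7.43. All 3 arrays at 30 min were above all 4 at 0 min, and the change of 0.41 ± 0.20 did not pass (adjusted p = 0.916).

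In MDA-MB-453, 19 of the 53 members fell after 24 h and none rose, in the fit to its 6 arrays. In the same fit 2.64% of all genes were called lower and 5.66% higher. The median change was -0.56, which puts the median member at 67.9% of its 0 min level, against a median of 0.02 over all genes. For 43 members all 24 h arrays lay below all 0 min arrays, which held for 12.5% of all genes. The mean was lower at 24 h for 52 of the 53. The count of calls rested on single arrays, with 6 without 24 h replicate 1, and 11, 9 and 8 without 0 min replicates 1, 2 and 3.

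MRTO4, the stalk place-holder, had the smallest p of the set in this line. It read 9.41, 9.60 and 9.57 at 0 min and 8.30, 8.46 and 8.15 at 24 h, a fall of 1.22 ± 0.12 (2.33-fold, adjusted p = 0.0038), and the groups were about 1 log2 unit apart. NAT10 went from 9.81, 9.83 and 9.81 to 8.99, 8.99 and 8.93, with hardly any spread, and fell by 0.84 ± 0.08 (adjusted p = 0.00395). IMP4, a U3-associated processome protein, fell by 1.00 ± 0.10 and LYAR by 0.93 ± 0.10. UTP20 had the lowest mean change (-1.33 ± 0.34) but did not pass (adjusted p = 0.0618). It read 6.56, 6.43 and 6.83 at 0 min and 5.08, 6.05 and 4.70 at 24 h, lower but far apart.

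By class, 4 of 6 members of the 40S group fell in MDA-MB-453 (BYSL, LTV1, NOB1 and TSR1), 6 of 15 of the 60S group (GTPBP4, MRTO4, NOC3L, PES1, RRS1 and URB2) and 5 of 18 of the processome (IMP4, NOP14, NOP9, RRP9 and UTP14A). Of the scaffold factors LYAR, PPRC1 and TCOF1 fell, 3 of 7, and NAT10 was the 1 of 7 modification factors. Of all genes, 2.64% were called lower in this line. The medians ran from -0.73 in the 40S group to -0.35 among the modification factors. NCL (-0.33 ± 0.11), NPM1 (-0.04 ± 0.09), FBL (-0.30 ± 0.11) and NOP58 (-0.34 ± 0.12) did not pass in this line. FBL read 11.74, 11.60 and 11.88 at 0 min and 11.46, 11.53 and 11.32 at 24 h, lower on every array but close to the 0 min range, while the groups of NPM1 overlapped.

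In MCF no member was called after 24 h in the limma fit to its 6 arrays, where 0.00791% of all genes were called lower and 3 members had an unadjusted p under 0.05. On simulated data this fit recovered no 2-fold difference, so its count of calls cannot be set beside those of the other lines. The fit to all 25 arrays called 2, TCOF1 and LYAR, and 2.02% of all genes lower. The mean was lower at 24 h in 45 of 53 members, and the median change was -0.21, against -0.01 over all genes. Groups were apart with 24 h lower for 10 members, against 6.32% of all genes. The standard errors here ran from 0.14 for WDR3 to 0.97 for RRP12, against 0.07 to 0.33 in BT20 and 0.08 to 0.50 in MDA-MB-453. They take no account of a possible match between single MCF arrays at 0 min and 24 h, which was not tested.

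TCOF1 had the smallest p in MCF, with 7.15, 7.26 and 7.04 at 0 min and 6.52, 6.19 and 6.14 at 24 h, every 24 h array lower. Its change of -0.87 ± 0.17 did not pass in the fit to the line alone (adjusted p = 0.294). LYAR was -0.63 ± 0.21, UTP20 -0.58 ± 0.20 and MRTO4 -0.66 ± 0.28, each with 24 h below 0 min on every array. RRP12 had the widest spread here, with 9.63, 6.68 and 8.72 at 0 min and 7.52, 6.55 and 9.29 at 24 h. NPM1 (0.05 ± 0.18) and FBL (0.04 ± 0.23) had means at or above those at 0 min.

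**Figure D4:**
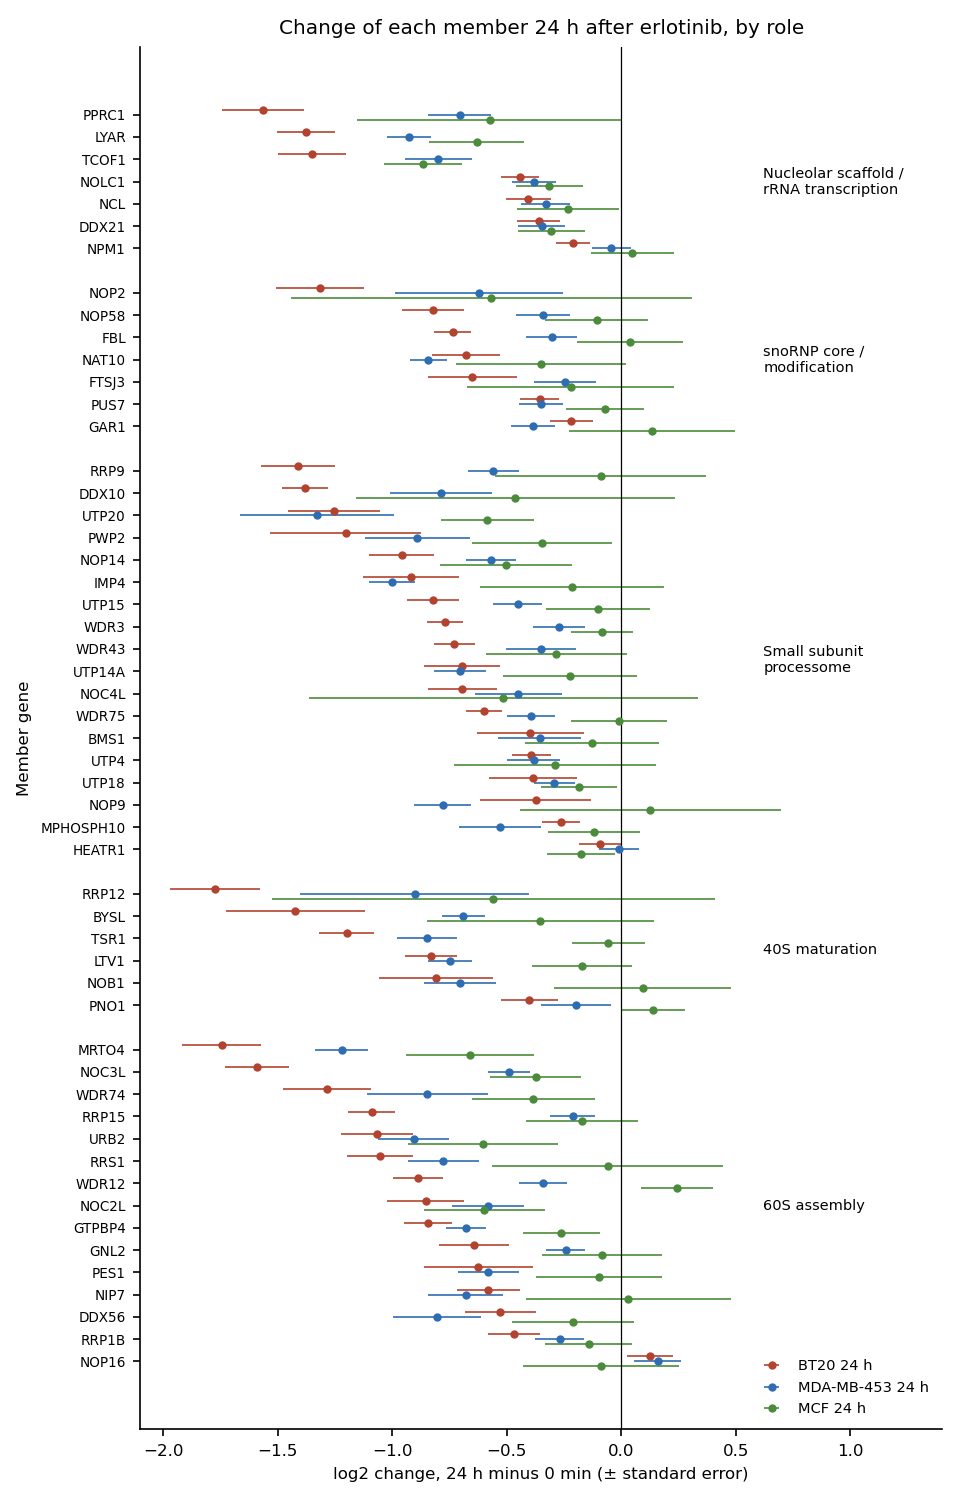
Log2 change of each of the 53 members at 24 h in BT20 (red), MDA-MB-453 (blue) and MCF (green), with the standard error of the fit, grouped by role and ordered by the change in BT20. The medians are -0.77, -0.56 and -0.21 in that order of lines, and the widest bar is that of RRP12 in MCF.

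The 24 h change was lowest in BT20, higher in MDA-MB-453 and highest in MCF for 39 of the 53 members. The share of all genes in this order was not computed, so the count has no reference. The change was lower in BT20 than in MDA-MB-453 for 44 members, against 48.5% of the other genes tested, and lower than in MCF for 51, against 45.6%. Few of these differences passed a test of their own. Of the 53, 7 fell more in BT20 than in MDA-MB-453, while 10.4% of all genes did, so their share is close to that of all genes. They were FBL, NOC3L, PPRC1, RRP15, RRP9, WDR12 and WDR3, and no member differed the other way, as 11.4% of all genes did.

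NOC3L had a difference of -1.10 ± 0.19 between the changes of BT20 and MDA-MB-453 (adjusted p = 0.00035). In MDA-MB-453 it went from 10.47, 10.38 and 10.57 to 9.99, 10.02 and 9.94, a fall of 0.49 ± 0.09 beside the 1.59 of BT20. RRP15 differed by -0.88 ± 0.14 (adjusted p = 0.000259), with 11.32, 11.23 and 11.45 at 0 min and 11.12, 11.06 and 11.19 at 24 h in MDA-MB-453. RRP9 (-0.85 ± 0.22), PPRC1 (-0.86 ± 0.25), WDR12 (-0.55 ± 0.15), WDR3 (-0.50 ± 0.13) and FBL (-0.43 ± 0.13) made up the rest. The count was 14 against replicates 1 to 3 of BT20 at 0 min, with 15.5% of all genes, and 4 without BT20 24 h replicate 1.

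With MCF the difference passed for 11 members, all with the larger fall in BT20, where 4.92% of all genes were called lower and 8.53% higher. They were FBL, GTPBP4, LYAR, MRTO4, NOC3L, RRP15, TSR1, UTP15, WDR12, WDR3 and WDR75. That fit takes 1 spread for both lines, and on simulated data most of its calls for this difference were false, so the 11 are not relied on. With each line given its own spread, an alternative chosen after the data were seen, 4 members passed, NOC3L, TSR1, WDR12 and WDR3, and 3.58% of all genes. Its false calls on simulated data were fewer but still above the threshold. WDR12 differed by -1.13 ± 0.17, with 9.34, 9.34 and 9.32 at 0 min and 9.66, 9.69 and 9.37 at 24 h in MCF, where every 24 h array was the higher. In BT20 it had gone from 10.96, 10.74, 10.96 and 11.15 to 9.96, 10.18 and 10.06. TSR1 differed by -1.14 ± 0.18, NOC3L by -1.22 ± 0.23 and WDR3 by -0.69 ± 0.13. Leaving out 1 array gave 6 to 19 calls, with 19 (and 7.4% of all genes) without replicate 4 of BT20 at 0 min, 6 without BT20 24 h replicate 1 or 3 or MCF 24 h replicate 1, and 7 without BT20 24 h replicate 2 or any other BT20 array at 0 min. No member differed between MDA-MB-453 and MCF, where 0.142% of all genes did in this direction. The smallest p belonged to TSR1 (-0.79 ± 0.20, adjusted p = 0.13).

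Across the 53 members, the 24 h changes of BT20 and MDA-MB-453 correlated at Pearson r = 0.68 and Spearman rho = 0.62, those of BT20 and MCF at 0.60 and 0.55, and those of MDA-MB-453 and MCF at 0.51 and 0.49. For the 12590 other genes tested r was 0.33, 0.33 and 0.25. These are correlations across genes, which are not independent replicates, and probe sets share their probes and their normalization in all lines. In MDA-MB-453 the means of MRTO4, UTP20 and IMP4 were at least 2-fold lower at 24 h, and 0.53% of all genes were. On the probe sets used, NPM1, HEATR1 and NOP16 had the 3 highest changes of the set in BT20 and in MDA-MB-453. In MDA-MB-453 the other probe sets above the filter read -1.15, -0.635 and -0.01 for HEATR1 and 0.18, -1.01 and -1.07 for NOP16. Those of NPM1 read -0.22 and -0.17.

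**Figure D5:**
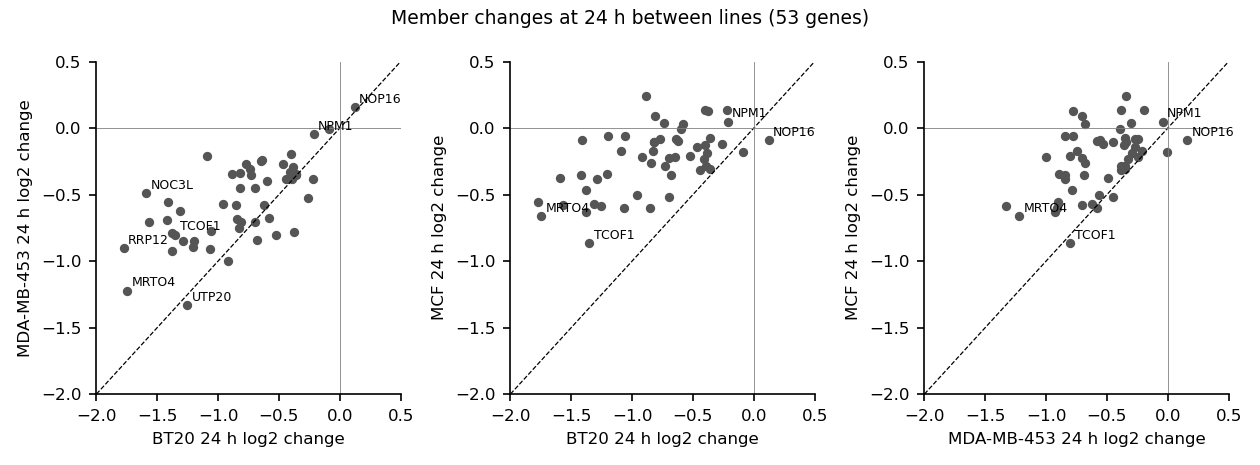
Log2 change at 24 h of the 53 members in 1 line against another, with a dashed line of equal change. Most points lie above the dashed line, so the change is lower in the line on the horizontal axis (44, 51 and 48 of 53 members from left to right).

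Before treatment the members already differed between BT20 and MDA-MB-453. Of the 53, 28 were higher in BT20 and 5 lower, with 36.7% and 37.9% of all genes called higher and lower, and the median difference was 0.38. NOB1 had the largest difference, with 11.23, 11.30, 10.96 and 10.08 in BT20 and 7.27, 7.55 and 7.79 in MDA-MB-453 (3.36 ± 0.23). UTP14A (2.18 ± 0.15) and UTP4 (1.31 ± 0.09) came next by p, followed by TSR1, with the 0 min values 11.92, 11.95, 12.23 and 11.74 in BT20 and 10.57, 10.24 and 10.56 in MDA-MB-453. The 5 that were lower in BT20 were FTSJ3, NOLC1, PPRC1, RRP12 and URB2. Genes with the largest falls were found on both sides, since MRTO4 was 1.02 ± 0.16 higher in BT20 and PPRC1 0.72 ± 0.17 lower.

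Related gene lists were set beside the members, with 18.3% of all genes called lower in BT20 at 24 h, 25.9% at 6 h against the 4 arrays and 2.64% in MDA-MB-453. Of 63 further assembly factors measured, 44 fell in BT20 at 24 h (median -0.52) and 9 in MDA-MB-453, among them DDX55 (-1.18 ± 0.10 in BT20), URB1 (-1.21 ± 0.11) and NOL6 (-1.28 ± 0.13). Of 15 genes of the RNA polymerase I machinery 10 fell in BT20, led by the subunits POLR1G (-1.26 ± 0.11), POLR1B (-0.94 ± 0.10) and POLR1E (-1.38 ± 0.16), and 2 fell in MDA-MB-453. Of 12 genes of the RNA exosome, which trims ribosomal RNA precursors, 5 fell in BT20, with EXOSC4 at -1.32 ± 0.10, EXOSC2 at -1.14 ± 0.10 and EXOSC9 at -0.57 ± 0.08, and 1 in MDA-MB-453. The proteins of the finished ribosome differed from these in count, as 1 of 53 measured ribosomal protein genes fell in BT20 at 24 h (RPL36, -0.20 ± 0.07), with a median of -0.02, and none in MDA-MB-453. At 6 h 18 of those 53 fell against the 4 arrays and none against replicate 4. Of 74 mitochondrial ribosomal protein genes 25 fell and 1 rose in BT20 at 24 h, among them MRPL32 (-0.61 ± 0.08), MRPS2 (-1.07 ± 0.17) and MRPL15 (-0.46 ± 0.08), and 3 fell in MDA-MB-453. No gene of these 5 lists was called in MCF. The fit to that line called 0.00791% of all genes lower and recovered no 2-fold difference on simulated data. Its lack of calls therefore cannot be set beside the other lines.

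MYC, the transcription factor named above, was not a member. In BT20 it read 7.77, 8.67, 7.94 and, on replicate 4, 11.19 at 0 min, 7.75, 7.62 and 8.13 at 30 min, 9.90, 9.89 and 9.49 at 6 h, and 6.15, 6.91 and 6.36 at 24 h. At 6 h all 3 arrays lay above replicates 1 to 3 and below replicate 4, so the change was 0.87 ± 0.63 against all 4 arrays (adjusted p = 0.259) and -1.43 ± 0.34 against replicate 4. At 24 h it fell by 2.42 ± 0.63 against all 4 arrays (adjusted p = 0.00792) and by 1.65 ± 0.24 against replicates 1 to 3. In MDA-MB-453 MYC fell by 1.59 ± 0.22, from 10.42, 10.76 and 10.53 to 9.03, 9.38 and 8.55, and in MCF it was 0.07 ± 0.67. Of the 11 measured genes of the MYC network, 2 fell and 4 rose in BT20 at 24 h, where 18.3% and 24.1% of all genes did, with MXD3 at 0.98 ± 0.15 and MXI1 at 0.68 ± 0.18, both known as antagonists of MYC. The part of MYC in the changes of the members was not tested.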

How the data were processed

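RNA of 25 samples was measured on Affymetrix arrays, 13 of BT20, 6 of MDA-MB-453 and 6 of MCF, in 8 groups. The deposited values are log2 intensities of 54613 probe sets that the authors made with GCRMA 2.20.0 in R 2.11.1, per the submitters' processing notes. GCRMA corrects the background by probe sequence, and whether both parts were normalized together is not given in the sources used here. Values were used as deposited. Symbols came from the platform annotation: 41091 probe sets had 1 symbol, 1801 several and 11721 none. Each gene took its brightest single-symbol probe set, and 12643 of 19775 genes with log2 above 4 on at least 3 arrays were tested.

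Differences were fitted with limma 3.58.1 (lmFit and eBayes) in R 4.3.3, each line alone because the lines differ in spread, with differences between lines from a fit to both. P-values were adjusted by Benjamini-Hochberg over all genes tested and called under 0.05, in 10 comparisons. The fitting code was tested on simulated data, where it recovered no change in MCF alone and where the differences between MCF and another line held false calls above the threshold. Counting depth does not apply to arrays, and the number of arrays limits the precision. Replicate numbers showed no consistent pairing: of 24 same-numbered pairs, 6 had deviations correlating over 0.1, and 6 correlated best with their own number. These correlations ran from -0.64 in MDA-MB-453 to 0.80 in MCF. In MCF they were -0.49, 0.80 and 0.04 for replicates 1, 2 and 3. The check cannot exclude a pairing within 1 line, and matches between arrays of different numbers were not tested. In MCF some members, though not all, had values that such a match would give. NIP7 read 10.03, 11.37 and 10.76 at 0 min and 10.84, 11.33 and 10.08 at 24 h. A match left out of the fit would widen the standard errors in MCF.

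The members and all gene lists were chosen with earlier results of these data known. Named by rule were NCL, NPM1, FBL, NOP56, NOP58, DKC1 and MYC, the 10 members with the largest called fall and the 3 with the highest change in BT20 at 24 h, up to 4 members with the smallest p in each other comparison, the members without a value, and up to 3 called genes with the smallest p of each further list. Other members named were chosen after their values were seen. The alternatives tried were a fit to all arrays, no filter and a filter at 6, the mean of probe sets, centring, repeated quantile normalization, a trended and robust fit, array weights, a replicate block, leaving out each array, the shared term, and each line's own spread.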

Additional observations from a re-analysis of the deposited data

Results flagged for a closer look

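In BT20 at 0 min, the only group of 4 arrays, Dixon's ratio was used to test for 1 array far from the others. It was applied to 33 sets of values, those of the named members, MYC and the mean of the members, and 5 passed. Chance flags about 1 in 20 groups, but these sets share the same 4 arrays and are not separate tests. Replicate 4 was the array apart for BYSL (9.29), NAT10 (9.69) and UTP14A (10.30), and for the mean of the 53 members (10.44), each time as the lowest. For NCL it was replicate 3, the highest at 12.85. The other groups held 3 arrays and were not tested this way.

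The 24 h change differed between BT20 and MDA-MB-453, by limma's test of the difference, for NOC3L (-1.10), RRP15 (-0.88), PPRC1 (-0.86), RRP9 (-0.85), WDR12 (-0.55), WDR3 (-0.50) and FBL (-0.43). In each of these the fall was the larger in BT20.

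Between BT20 and MCF the same test passed for the named members NOC3L (-1.22), TSR1 (-1.14), WDR12 (-1.13), MRTO4 (-1.08), RRP15 (-0.92), FBL (-0.77), LYAR (-0.74), WDR3 (-0.69) and GTPBP4 (-0.58). Most calls of that fit for this difference were false on simulated data. With each line given its own spread, NOC3L, TSR1, WDR12 and WDR3 of these passed.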

How the results depend on the processing

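The 24 h fall in BT20 (46 members) and the 6 h fall (37) stayed within 1.5 times under all alternatives except the shared term at 6 h (13 members), and leaving out 1 array gave 41 to 51 and 31 to 40. The shared term also took the 6 h counts to 1 snoRNP, 3 processome, 5 60S and 1 40S member, and BT20 minus MDA-MB-453 to 14, BT20 minus MCF to 19 and the members higher at 24 h than at 6 h to 0. The fit to all 25 arrays gave 10 processome members at 6 h, 2 higher at 24 h than at 6 h, 3 processome and 2 40S members in MDA-MB-453, 2 in MCF, 4 for BT20 minus MDA-MB-453, 1 for MDA-MB-453 minus MCF and 3 lower at 0 min. The mean of probe sets gave 5 nucleolar scaffold members at 6 h, 5 in MDA-MB-453 and 9 lower at 0 min. In MDA-MB-453 (19 members) the trended and robust fit gave 29, with 6 scaffold, 3 snoRNP and 8 processome members, and centring gave 3 snoRNP members.

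Except for shares given further above, no share of all genes called was computed for the alternatives in this section. Counts without such a share have no reference and are not a result about the members. Array weights, whose fit stopped before convergence in some comparisons, moved the most. They gave 48 members in MDA-MB-453, with 5 scaffold, 7 snoRNP, 17 processome and 14 60S members. They gave 21 for BT20 minus MDA-MB-453, 46 lower and 1 higher for BT20 minus MCF, 25 lower and 2 higher for MDA-MB-453 minus MCF, 8 lower at 0 min, 1 higher in BT20 at 24 h and 12 higher at 24 h than at 6 h. The single 6 h rise went to 3 with array weights and to 0 with all 25 arrays, no filter, centring, quantile normalization or the shared term. Each line's own spread gave 4 for BT20 minus MCF.

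With the replicate block, BT20 had 39 members lower at 6 h, 2 higher at 6 h, 51 lower at 24 h, and 25 lower and 12 higher at 24 h than at 6 h. The block left 0 in MDA-MB-453, in total and in each role (0 scaffold, 0 snoRNP, 0 processome, 0 60S and 0 40S members). Replicate 4 of BT20 has no partner and so no weight in the block. In MDA-MB-453 the deviations of same-numbered arrays correlated at -0.64 to 0.16. Whether the numbers pair the samples in that line is not known, so the loss of calls there can be neither set aside nor relied on.

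Leaving out 1 array gave 6 to 17 members in MDA-MB-453 (1 to 2 scaffold, 1 to 5 processome, 2 to 5 60S and 1 to 4 40S), 4 to 14 for BT20 minus MDA-MB-453, 6 to 19 for BT20 minus MCF, 0 to 2 higher at 6 h and 1 to 3 higher at 24 h than at 6 h. The 112 named values gave 1886 values under the alternatives: 1715 kept their direction and side of the threshold, 81 changed sign without a call on either side, 56 lost a call, 29 gained one and 5 reversed. These 5 were MYC at 6 h with the shared term (-1.43), MRTO4 at 6 h as the mean of its probe sets (1.06), and NOP16 as the mean of its probe sets at 6 h (-0.68), at 24 h (-0.54) and in MDA-MB-453 (-0.44). The MRTO4 value comes from its second probe set, at 3.04 at 6 h. Other causes were not tested.

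The limits are few arrays per group, no solvent control over time, and MCF in a part of its own. A further limit is 1 control array at 0 min in BT20 that resembles the 6 h arrays. What sets these arrays apart from the other 0 min arrays is mixed with the 6 h change and was not tested.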

Other observations

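The second probe set of MRTO4 read 3.04 log2 units higher at 6 h than at 0 min in BT20 and -1.94 at 24 h, where the probe set used read -0.92 and -1.75. Of the 34 other probe sets of members, 32 were lower in MDA-MB-453 at 24 h. Of the further gene lists, the E-box was present in the promoter windows of 9 of 69 mitochondrial ribosomal protein genes, 1 of 14 RNA polymerase I genes, 1 of 10 exosome genes and 3 of 11 MYC network genes.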
